A study of Bos taurus with 11 samples.

Results

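The hairpin of *miR-126* gives a mature miRNA from each of its strands, *bta-miR-126-5p* and *bta-miR-126-3p* (here *miR-126-5p* and *miR-126-3p*), and both were listed in the table of 796 miRNAs counted in mammary tissue of dairy cows. Both rows were selected by name, by a rule that used none of their values. Earlier results of these data were known when the members were chosen. The small RNA libraries came from biopsies of the mammary gland, each from a different animal, of which 5 were Holstein and 6 Montbéliarde. Both are dairy breeds, and the study compared their mammary miRNAs because their milk yields differ. All cows were lactating adults in mid-lactation and received the same diet, and no treatment or genetic modification was involved. The biopsy is a piece of whole gland, so its RNA comes from a mixture of secretory, stromal, vascular and blood cells. The libraries hold no messenger RNA counts, so the origin of *miR-126* from endothelial cells was not checked here against endothelial genes.

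*MiR-126* is known as the miRNA of the vascular endothelium, the cell layer that lines blood vessels. In mammals its gene lies within *EGFL7*, which encodes a protein secreted by endothelial cells, and in the RefSeq gene table of *Bos taurus* (assembly ARS-UCD2.0) *MIR126* also falls inside the span of *EGFL7*. The 3p arm is known to dampen *SPRED1* and *PIK3R2*, which act as brakes on the response to vascular endothelial growth factor, and also *VCAM1*, an adhesion molecule for leukocytes. The 5p arm is known to act on *DLK1* and thereby on endothelial proliferation. In the lactating gland, capillaries around the alveoli deliver the precursors of milk.

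The 5p arm was among the most abundant miRNAs of the gland. By mean share of the counted reads it held rank 9, with 2.58% ± 0.282 (SD, n = 11), whereas the 3p arm held rank 37 with 0.235% ± 0.0376 (SD, n = 11). Within single libraries the rank of *miR-126-5p* was always between 8 and 11 and that of *miR-126-3p* between 35 and 48. Shares and ranks took each listed entry separately, and some entries had equal or nearly equal values in the breed comparison below. Examples are *let-7b* with *miR-3596*, and *miR-26c* with *miR-26a*, which averaged 611785 normalized reads. The same reads may thus be counted in several entries, which would lower the shares of *miR-126*. No correction was made for this. Together the arms took 2.88% ± 0.337 (SD, n = 5) of the reads in Holstein libraries, and 2.76% ± 0.304 (SD, n = 6) in those of Montbéliarde. The difference, -0.11 percentage points with a 95% interval of -0.562 to 0.322, was smaller than the cow-to-cow spread (two-sided exact permutation test, p = 0.582, adjusted p = 0.597 over the 3 measures compared in this way). The library totals behind these shares were sums over all listed entries and ranged from 6087865 to 16808976 reads. Counting error was therefore small. In the shallowest library, Montbéliarde CNLX13, the share of *miR-126-3p* was 0.192%, with a Wilson 95% confidence interval of 0.188 to 0.195%.

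For *miR-126-5p*, normalized read counts, the raw counts divided by 1 size factor per library, were 271399 in Holstein library CNLX1, 244270.0 in CNLX3, 303906 in CNLX5, 236137 in CNLX7 and 228678 in CNLX9. The Montbéliarde libraries ranged from 217698 to 277701 with a median of 247163. The highest level was thus in a Holstein cow and the lowest in a Montbéliarde cow, while the bulk of both breeds overlapped. The Holstein mean was 256878 ± 30850.0 (SD, n = 5) and the Montbéliarde mean 247965 ± 21076 (SD, n = 6). The log2 fold change, Montbéliarde over Holstein, was -0.06 (standard error 0.13, 95% interval -0.34 to 0.23, edgeR quasi-likelihood, Benjamini-Hochberg adjusted p = 0.886).

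For *miR-126-3p*, the normalized read counts of the Holstein libraries were 25164 in CNLX1, 21777 in CNLX3, 26262 in CNLX5, 22686 in CNLX7 and 22789 in CNLX9. Those of the Montbéliarde libraries ranged from 19244 to 27396, with a median of 20804. The Holstein values lay inside the Montbéliarde range, in which CNLX13, CNLX15 and CNLX21 were below every Holstein library and CNLX17 was above all of them. The Holstein mean was 23735 ± 1888 (SD, n = 5) and the Montbéliarde mean 22164 ± 3444 (SD, n = 6). The log2 fold change was -0.11 (standard error 0.14, 95% interval -0.40 to 0.19, adjusted p = 0.789 with edgeR).

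**Figure D1:**
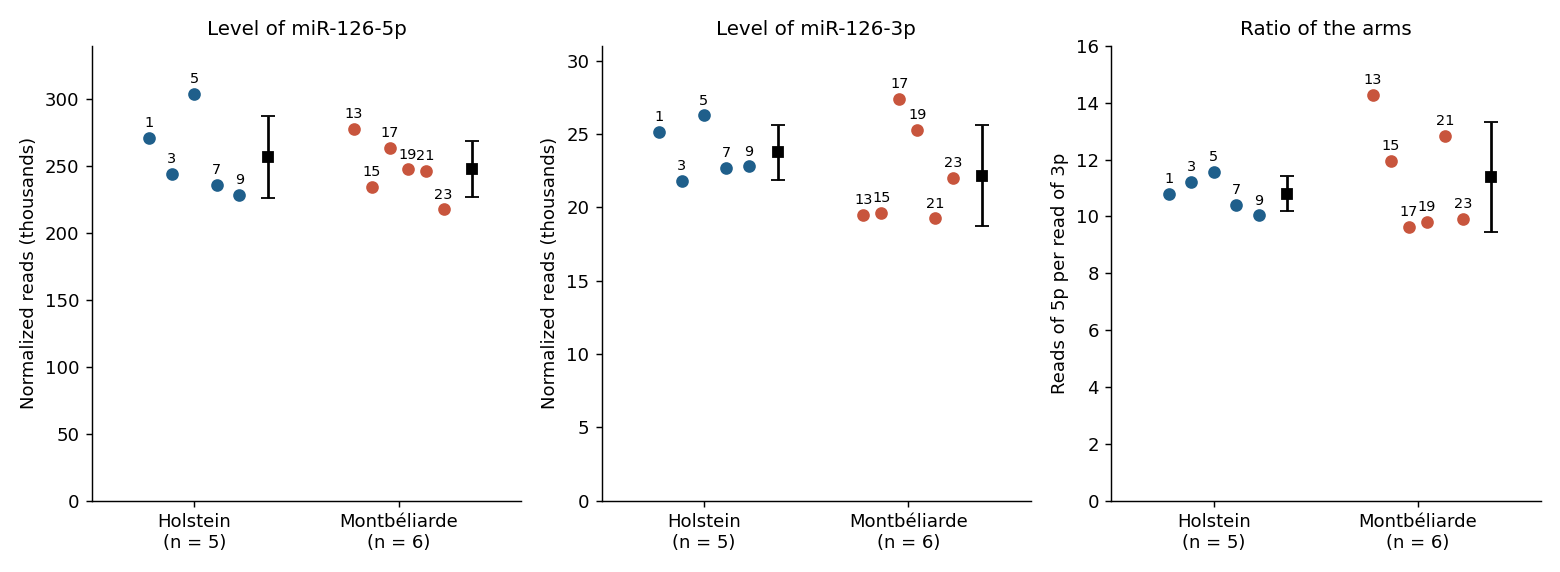
Normalized read counts of miR-126-5p and miR-126-3p (axis labelled in units of 1000 reads) and the reads of 5p per read of 3p, for each library of both breeds. Each point is 1 cow with its library number, and squares with bars give mean ± SD. The 5p arm sits between 217698 and 303906 reads and the 3p arm between 19244 and 27396, and the breeds overlap in each panel.

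Neither arm passed the limit of adjusted p ≤ 0.05. Of the 550 miRNAs tested, 2 passed, which is 0.364%, namely *miR-16a* and *miR-186*. This count varied with the method, at 21 with DESeq2, 0 with DESeq2's size factors in edgeR (82 at an unadjusted p ≤ 0.05), and 0 to 6 with a library left out. By unadjusted p, *miR-126-3p* had rank 316 and *miR-126-5p* rank 420 among the 550. The 95% intervals left room for a change of up to 0.34 on the log2 scale in *miR-126-5p* and 0.40 in *miR-126-3p* towards Holstein. The sign of the small differences depended on the scaling. With library totals that leave out *miR-143*, the most abundant miRNA, the log2 fold change was 0.12 for *miR-126-5p* and 0.07 for *miR-126-3p*, while the median of all tested miRNAs moved from 0.03 to 0.21. Relative to that median, the arms were at -0.09 and -0.14 under this scaling and at -0.08 and -0.13 under the main scaling. By the paper's sequencing summary, a smaller part of the raw reads remained after cleaning in Montbéliarde libraries. On average these had more adaptor reads and more reads that were too short. The part of this difference in the breed comparisons was not tested. All Holstein libraries carry lower library numbers than the Montbéliarde libraries, so that an order of preparation, if the numbers reflect one, and breed cannot be told apart. In bulk tissue, fewer endothelial cells and less *miR-126* per cell cannot be told apart either.

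The spread of *miR-126* between cows was small. Each cow gave a single library, so this spread also holds any differences of sampling and preparation. The SD of the log2 level over the 11 libraries was 0.14 for *miR-126-5p* and 0.18 for *miR-126-3p*, against a median of 0.38 over the 214 miRNAs with a mean normalized read count of at least 100. From the lowest spread upwards, *miR-126-5p* had rank 7 and *miR-126-3p* rank 17. The arms averaged 252016 and 22878 normalized reads, and miRNAs near the limit of 100 have more counting error in this measure. The part of abundance in these ranks was not tested. On the linear scale the coefficient of variation was 9.92% for *miR-126-5p* and 12.4% for *miR-126-3p*. Within breeds it was 12.01% in Holstein and 8.50% in Montbéliarde for the 5p arm, and 7.95% and 15.5% for the 3p arm.

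The 5p arm exceeded the 3p arm in every library. Each read stands for a whole mature miRNA, so no correction for length is needed, but differences between sequences in adaptor ligation are not corrected, and the ratio is one of reads. In Holstein, the reads of 5p per read of 3p were 10.8 in CNLX1, 11.2 in CNLX3, 11.6 in CNLX5, 10.4 in CNLX7 and 10.0 in CNLX9. In Montbéliarde, they ranged from 9.62 in CNLX17 to 14.3 in CNLX13, with a median of 10.9. The mean log2 ratio was 3.47 ± 0.18 (SD, n = 11), equal to an 11.04-fold excess of 5p. With 5p higher in 11 of 11 libraries, the exact sign-flip permutation test gave p = 0.000977, two-sided, the smallest it can give with this number of libraries.

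Expressed as a share, *miR-126-3p* made up 8.35% ± 0.917 (SD, n = 11) of the reads of both arms. The share was lowest in Montbéliarde library CNLX13 at 6.55% (Wilson 95% confidence interval 6.44 to 6.67%) and highest in Montbéliarde library CNLX17 at 9.42% (9.29 to 9.55%). As PCR duplicates cannot be recognised in these counts, such intervals reflect the counting error alone. They lie far from each other. CNLX13 was also the library with the fewest counted reads, whereas CNLX17, with 7266501 reads, was the next to lowest in depth, and the part of depth in the ratio was not tested.

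The ratio of the arms did not differ between breeds beyond the spread between cows. Holstein libraries had a log2 ratio of 3.43 ± 0.08 (SD, n = 5) and Montbéliarde libraries one of 3.49 ± 0.24 (SD, n = 6). The difference was 0.06 with a 95% interval of -0.20 to 0.33 (two-sided exact permutation test, p = 0.597, adjusted p = 0.597 over 3 measures). Every Holstein library lay within the Montbéliarde range. Montbéliarde libraries CNLX13, CNLX15 and CNLX21, were above the highest Holstein ratio, and the remaining Montbéliarde libraries were below the lowest. Without CNLX13 the difference was -0.01.

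Other hairpins gave the frame for this ratio. Both arms were listed under matching names that end in 5p and 3p for 63 known hairpins. Of these, 21 had at least 10 reads of each arm in every library. Hairpins whose arms are named in other ways were left out. By the mean log2 ratio of 5p to 3p, *miR-126* ranked 6 among these 21, between *miR-142* at 4.49 and *miR-425* at 2.81. The hairpins next to these were *miR-6119* at 5.40 and *miR-1388* at 2.67. *MiR-142* is known from blood cells, and *miR-425* shares its host gene with *miR-191*. In 11 of the 21 hairpins 5p was the more abundant arm, and the strands with fewer reads held a median of 19.5% of the reads.

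The ratio of *miR-126* also varied little from cow to cow. Its SD of 0.18 was the second lowest of the 21 hairpins, whose SDs ranged from 0.16 for *miR-151* to 0.66 for *miR-296*, with a median of 0.43. Hairpins with a scarce arm have more counting error in this measure. Among the 6 hairpins whose weaker arm averaged at least 1000 reads, the median SD was 0.20 and *miR-126* again had rank 2. In the same exact permutation test between breeds, 1 of the 21 hairpins, *miR-362*, had an unadjusted p of 0.0238 (4.76%), and none, or 0.00%, passed after Benjamini-Hochberg adjustment over the hairpins. The adjusted p of *miR-126* was 0.866 by the exact permutation test over the 21 hairpins.

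**Figure D2:**
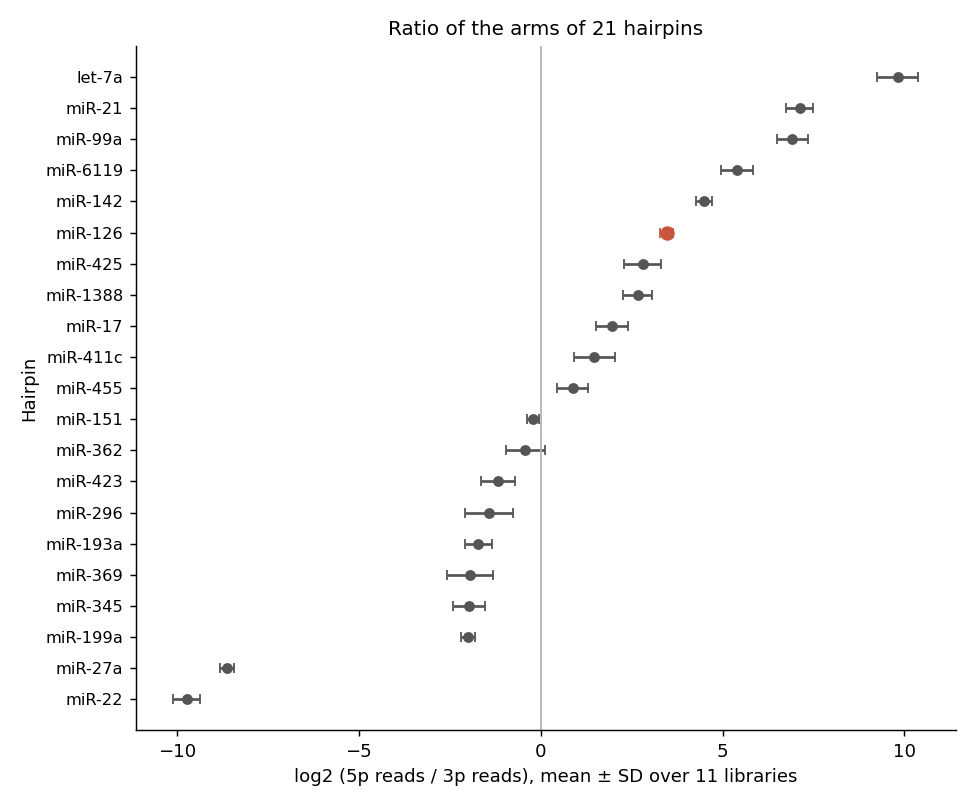
Mean log2 ratio of 5p to 3p reads (horizontal axis) for 21 hairpins, with bars for the SD over the 11 libraries. Shown are known hairpins with arms named 5p and 3p and at least 10 reads of each arm in every library. The hairpin of miR-126, in red, stands at 3.47 with an SD of 0.18, sixth from the top and with a narrower bar than most others.

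The levels of the arms were also set beside each other across cows. On log2 normalized read counts, Pearson's r between *miR-126-5p* and *miR-126-3p* was 0.385 (permutation test, p = 0.241) and Spearman's rho was 0.318 (permutation test, p = 0.341) over 11 libraries. Without CNLX5 and CNLX23, the libraries farthest from the median of *miR-126-5p*, r was 0.190 (permutation test, exact, p = 0.613). Within the 6 Montbéliarde libraries it was 0.0986 (exact permutation test, p = 0.860), and with each breed centred on its mean it was 0.352 (permutation test, p = 0.285). The 5 Holstein libraries were below the minimum of 6 set here for a coefficient. Among them, CNLX5 and CNLX1 were highest for both arms, whereas CNLX3, CNLX7 and CNLX9 stood in opposite order for 5p and 3p. Without CNLX13, the library with the highest ratio of the arms, r over the other 10 libraries was 0.619 (permutation test, p = 0.0544). The measure depended on the scaling, since r was 0.667 on shares of counted reads (permutation test, p = 0.0259, adjusted p = 0.155 over 6 settings of this relation). Both arms carry the same library total in the shares and the same size factor in the normalized read counts. The source of the difference in r was not tested. Over the 21 hairpins the median r was 0.385, and *miR-126* had rank 11.

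**Figure D3:**
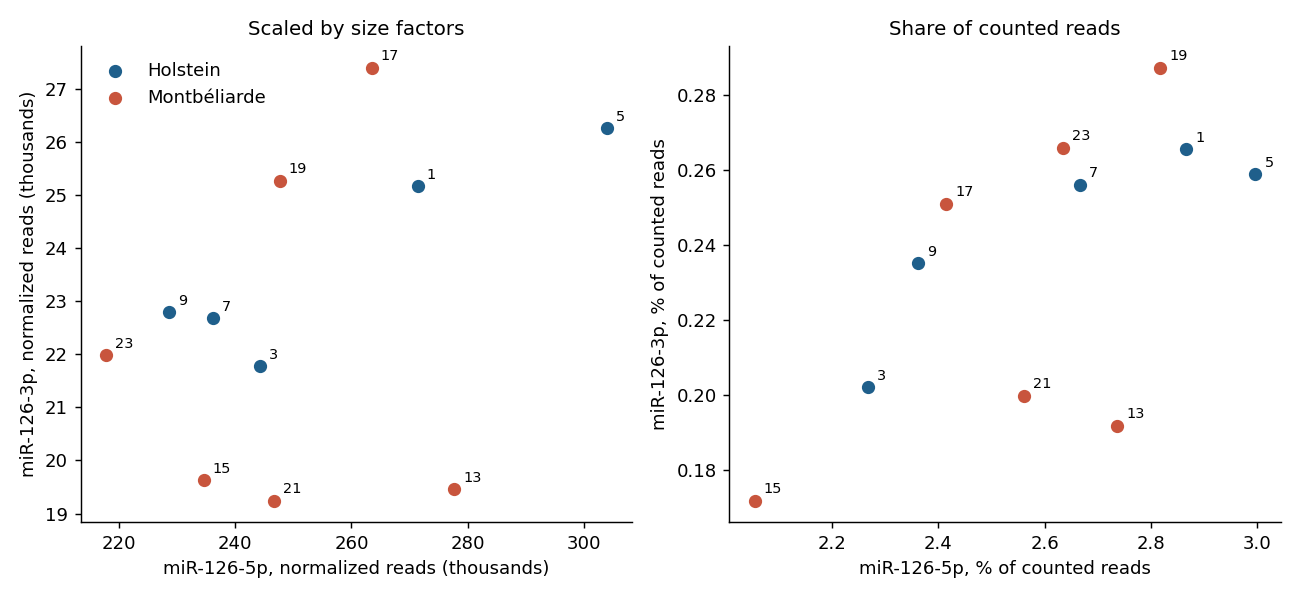
Level of miR-126-3p against miR-126-5p in the 11 libraries, as normalized reads in units of 1000 (left) and as percent of counted reads (right), with the library numbers beside the points. The axes do not start at 0. Pearson's r is 0.385 on the log2 scale of the left panel's values and 0.667 on that of the right panel's values. Montbéliarde libraries 13, 15 and 21 lie lowest for 3p on the left.

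Among 212 other miRNAs with a mean normalized read count of at least 100, those most like *miR-126-3p* over the 11 libraries by Pearson's r on log2 normalized read counts were *miR-6120-3p* (0.822), *miR-98* (0.805), *miR-194* (0.793), *miR-345-3p* (0.790) and *miR-215* (0.742). *MiR-98* belongs to the let-7 family, and *miR-194* and *miR-215* are known as partners in a shared cluster. These coefficients describe the highest of many and carry no test, and the points share the scaling of each library. After each breed was centred on its mean they were 0.811, 0.787, 0.768, 0.787 and 0.770, respectively. The lowest coefficients were those of *miR-411a* (-0.717) and *miR-127* (-0.713), both of the imprinted *DLK1*-*DIO3* region, and of *miR-142-3p* (-0.711), a leukocyte miRNA. On shares of counted reads, these 3 were at -0.674, -0.675 and -0.392, so that the value of *miR-142-3p* rested on the scaling, whereas the 5 most alike lay between 0.827 and 0.889.

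For *miR-126-5p* the highest coefficients were those of *miR-151-3p* (0.798), *miR-194* (0.701), *miR-194b* (0.677), *miR-26b* (0.666) and *miR-151-5p* (0.628). Only *miR-194* was in the top 5 for both arms. On this scaling the partner arm ranked 46 for likeness to *miR-126-3p* and 19 for likeness to *miR-126-5p*. These ranks carry no test and are given for this scaling only, whereas r between the arms was 0.667 on shares of counted reads. None of the miRNAs named for likeness passed the test between breeds, with adjusted p-values from edgeR between 0.405 for *miR-345-3p* and 0.983 for *miR-215*.

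A list of 30 miRNAs known from blood vessel growth and the endothelium was compared next, of which 28 were in the table and 27 were tested. With edgeR none passed the adjusted limit in either direction. At an unadjusted p ≤ 0.05, 3 were higher in Montbéliarde, namely *miR-221*, *miR-218* and *miR-130a*, and 2 were higher in Holstein, *miR-19a* and *miR-19b*. These were 18.5% of the list, beside 14.2% of all 550 miRNAs (7.64% higher in Montbéliarde and 6.55% in Holstein), so that the share of the list was near the background. DESeq2 called 2 members, *miR-19a* and *miR-19b*, of the 27 to which it gave an adjusted p, beside 4.86% of all, and limma-voom called none, beside 0.364% of all. The median log2 fold change of the list was 0.09, beside 0.03 for all 550 miRNAs. The most abundant members were *miR-10b*, *miR-27b*, *miR-92a* and *miR-10a*. *MiR-27b*, a miRNA that promotes the sprouting of vessels, was at a log2 fold change of 0.09 (standard error 0.14), and *miR-92a*, which restrains vessel growth, at 0.30 (standard error 0.14). The *miR-10* members, known to modulate signalling by vascular endothelial growth factor, were at -0.09 for *miR-10b* and 0.03 for *miR-10a*. The summed share of the list ran from 10.4 to 15.7% of the reads in Holstein libraries and from 10.4 to 15.1% in those of Montbéliarde.

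Markers of other cell types were set beside *miR-126*, because the biopsies hold several cell types. No member of these lists that was in the table had 0 reads over all libraries. The epithelial list, with 10 of its 11 members in the table, summed to 4.05 to 5.30% of the reads in Holstein libraries and to 1.91 to 5.08% in Montbéliarde libraries (two-sided exact permutation test on the log2 sum, p = 0.0346, adjusted p = 0.0924 over 8 lists). Its members did not share a direction, with *miR-205* at a log2 fold change of 0.38, *miR-182* at 0.05 and the other 8 below 0. The *miR-200* family, the part of this list used for the ratio described next, summed to 3.43 to 4.64% of the reads in Holstein libraries. Its sum was 1.41 to 4.44% in Montbéliarde libraries (same exact test, p = 0.0346, adjusted p = 0.0924). Of its 5 members, *miR-141* and *miR-200c*, at -0.74 and -0.61, were lower in Montbéliarde at an unadjusted p ≤ 0.05 in edgeR, beside the 6.55% of all miRNAs, and none passed after adjustment. *MiR-429* was at -0.33, *miR-200b* at -0.10 and *miR-200a* at -0.04. *MiR-143* and *miR-145* of smooth muscle and myoepithelial cells, of which *miR-143* holds nearly all reads, summed to 15.9 to 21.3% in Holstein libraries. Their sum was 21.9 to 33.7% in Montbéliarde libraries (same exact test, p = 0.00433, adjusted p = 0.0346). In edgeR, neither member passed, with *miR-143* at a log2 fold change of 0.58 (adjusted p = 0.171) and *miR-145*, in the opposite direction, at -0.27 (adjusted p = 0.649). The leukocyte list of 5 held 0.186 to 0.304% in Holstein libraries against 0.187 to 0.345% in Montbéliarde libraries (exact permutation test, p = 0.463, adjusted p = 0.741). The erythroid list of 3 held 0.267 to 0.390% against 0.242 to 0.5263% (exact permutation test, p = 0.593, adjusted p = 0.762). The fibroblast and stroma list of 4 held 0.0886 to 0.115% in Holstein libraries against 0.0938 to 0.243% in Montbéliarde libraries (exact permutation test, p = 0.0844, adjusted p = 0.169). All 4 of its members had a log2 fold change above 0. The skeletal muscle list, with 3 of its 4 members in the table, held at most 0.0168% in any library (exact permutation test, p = 0.667, adjusted p = 0.762). The sums of all lists are shares of the same library total, so a higher share of *miR-143* lowers the shares of the others. The epithelial and *miR-200* comparisons are therefore not independent of *miR-143*, and its part in them was not tested. The part of these cell types in the levels of *miR-126* was not tested.

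Relative to the *miR-200* family, *miR-126-3p* stood higher in most Montbéliarde libraries. *MiR-141* holds most of the family's summed reads, with a mean of 258541 per library. *MiR-200c* follows with 45064, and each of the others averages 14325 or fewer, so the ratio mainly reflects *miR-141*. In Holstein, the log2 ratio of *miR-126-3p* to the family's summed reads was -4.12 in CNLX1, -4.35 in CNLX3, -3.73 in CNLX5, -4.11 in CNLX7 and -3.97 in CNLX9. In Montbéliarde, it ranged from -4.53 in CNLX13 to -2.96 in CNLX19. All Montbéliarde libraries other than CNLX13 were above all Holstein libraries, and CNLX13 was below all of them. The Holstein mean was -4.06 ± 0.23 (SD, n = 5) and the Montbéliarde mean -3.42 ± 0.60 (SD, n = 6). The difference was 0.64 with a 95% interval of -0.05 to 1.23 (two-sided exact permutation test, p = 0.0649, adjusted p = 0.195 over 3 measures). Without CNLX13 it was 0.86, and since the remaining libraries of the breeds do not overlap, the p of that omission is the smallest that 5 against 5 can give and carries no weight of its own. With any other library left out it was 0.54 to 0.72 (exact permutation test, p = 0.0714 to 0.119). It was 0.48 relative to the whole epithelial list (exact permutation test, p = 0.0693), and 0.69 with both arms of *miR-126* summed (exact permutation test, unadjusted p = 0.0411). The share of *miR-126-3p* itself was 0.244% ± 0.0258 (SD, n = 5) in Holstein libraries and 0.228% ± 0.0464 (SD, n = 6) in those of Montbéliarde. The log2 share of the *miR-200* family differed by -0.75, Montbéliarde minus Holstein. The higher ratio thus came with a lower share of the family and not with a higher share of *miR-126-3p*. Its test is not independent of the test of the family's sum given above.

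**Figure D4:**
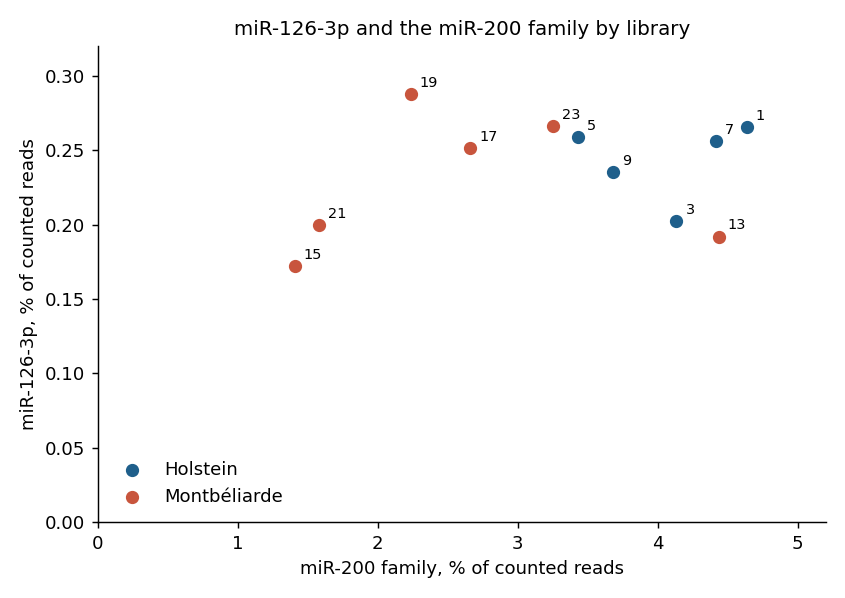
Share of the counted reads held by miR-126-3p (vertical axis, percent) against the share held by the miR-200 family (horizontal axis, percent) in the 11 libraries, with the library numbers. Montbéliarde libraries spread from 1.41 to 4.44% along the horizontal axis and Holstein libraries from 3.43 to 4.64%, and on the vertical axis from 0.172 to 0.287% and from 0.202 to 0.266%, so that the breeds overlap on both axes and Montbéliarde libraries are more spread.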

How the data were processed

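Small RNA libraries of 11 cows were analysed, grouped by the breed in the sample titles, with the library number as the only replicate name. According to the methods, the authors trimmed adaptors, kept reads of limited length and quantified them with ncPRO-seq and miRDeep2 against btau5.0.1 and miRBase. The authors deposited raw read counts per mature miRNA, without normalization. They also deposited a signal, the normalized read counts, in which every raw count of a library is divided by the size factor that DESeq2 gave it. Their log2 fold changes, p-values and means, also deposited by the authors, were not used. Library totals, summed over all listed entries without removal of reads that may fall under several entries, ranged from 6087865 to 16808976. The spread between libraries rather than counting error therefore limits precision for *miR-126*. Each cow gave a single library, so differences between cows and those of sampling or preparation cannot be told apart.

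Raw counts of all miRNAs with at least 10 reads in total were fitted with edgeR 4.0.16 (R 4.3.3, TMM, quasi-likelihood, robust), and p-values were adjusted over the 550 tested. DESeq2 1.42.0 and limma 3.58.1 were alternatives, as were other scalings, filters and the omission of each library in turn. Standard errors were derived from the fold change and the F statistic. Single measures were compared by exact permutation over all 462 assignments of 5 and 6 breed labels, whose smallest p is 0.00216, and intervals were obtained by inverting that test. Correlations used log2(normalized read count + 1) and 100000 resamples, or every ordering with fewer than 10 libraries. Named beside the members were the 5 miRNAs most like each arm and the 3 least like the 3p arm, the 2 hairpins nearest in ratio on each side, at most 4 of each list by abundance, and any count of 5 or fewer in full. The fits were tested on simulated data. The members and lists were chosen with earlier results of these data known. Plots were drawn with matplotlib 3.10.9.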

Additional observations from a re-analysis of the deposited data

How the results depend on the processing

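Under 8 other settings and 11 omissions of a library, neither arm of *miR-126* passed the limit between breeds, with adjusted p-values from 0.714 to 0.991 for *miR-126-5p* and from 0.609 to 0.981 for *miR-126-3p*. The sign turned with library totals without *miR-143* (log2 fold change 0.12 for 5p and 0.072 for 3p). With single libraries left out, the log2 fold change ranged from -0.10 to 0.064 for 5p, positive without CNLX1, CNLX5 or CNLX15, and from -0.15 to 0.0090 for 3p, positive without CNLX15. The number of miRNAs called among all was 21 with DESeq2's Wald test, 2 with limma-voom, 1 with library totals only, 0 with size factors in place of TMM (82 at an unadjusted p ≤ 0.05), 0 with totals without *miR-143* (97 unadjusted), and between 0 and 6 with a library left out. The breed difference of the log2 arm ratio ranged from -0.0064 to 0.11 with a library left out and turned only without CNLX13. The excess of 5p over 3p ranged from 3.43 to 3.49 on the log2 scale in all settings, and within Holstein alone, at 3.43, the exact test gave p = 0.0625, the smallest 5 libraries allow. With single libraries left out, the correlation of the arms ranged from 0.187 without CNLX5 to 0.619 without CNLX13. It was 0.0986 within Montbéliarde alone, and it passed an unadjusted limit only on shares of counted reads, at 0.667. The difference relative to the *miR-200* family ranged from 0.54 to 0.86 with a library left out, where only the omission of CNLX13 passed, leaving breeds that do not overlap. It was 0.48 against the sum of the epithelial list, which did not pass, and 0.69 with both arms summed, which passed unadjusted. The causes of these changes were not tested. The breeds share no replicate numbers. No paired analysis was possible because the labels give no pairing of cows.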

Other observations

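The spread of *miR-126* between cows was set beside that of other miRNAs in a comparison chosen after the data were seen. The 3 miRNAs that the study used as internal controls of its RT-qPCR, *miR-26a*, *miR-92a* and *miR-191*, had SDs of the log2 level over the 11 libraries of 0.41, 0.23 and 0.40, and ranks 121, 34 and 117 among the 214 miRNAs from the lowest spread upwards. Both arms of *miR-126*, at 0.14 and 0.18, varied less in these libraries than each of the 3 controls. The values were obtained by sequencing, with size factors computed over all miRNAs, and the spread in RT-qPCR was not analysed here.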
